A study of Mus musculus with 11 samples.

Results

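The 10 genes followed here encode acute-phase proteins, calcium-binding S100 proteins, metal-binding proteins and a feedback inhibitor of cytokine signalling. They were measured in denervated and innervated mouse muscle, and are Lcn2, Orm1, Orm2, Saa3, S100a8, S100a9, Mt1, Mt2, Serpina3n and Socs3. All 13 probe sets annotated to these 10 symbols alone were taken, of 45101 probe sets on the array, and all 13 passed the filter on low signals that left 26170 probe sets and 12214 genes for testing. The genes were chosen by symbol from earlier results of these same arrays, in which the denervation changes of Orm2, S100a8, S100a9 and Mt2 had been reported, so the denervation values of all 10 are given as a description. How many of the 10 the whole-table fit called for denervation is printed once, beside the share of all genes, and supports nothing. The genotype differences come with the test of the whole table, but they share the denervated arrays with the values that chose the genes and are not independent evidence.

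The muscle was the tibialis anterior, which lifts the foot and is made mostly of fast fibres, and its total RNA was hybridised to 11 Affymetrix arrays. The denervated MCK::cre group (3 arrays) had 1 floxed Runx1 allele, 1 null Runx1 allele and MCK::cre, in which the promoter of the muscle creatine kinase gene drives Cre recombinase in muscle fibres, and its muscle had been denervated for 3 days according to the titles. The denervated control group (3 arrays) had the same Runx1 alleles without Cre and was denervated in the same way. The innervated MCK::cre group (2 arrays) and the innervated control group (3 arrays) had the same genotypes without denervation. Every animal therefore lacked 1 functional Runx1 allele, and no group was wild type. Only the MCK::cre groups carried Cre, so an effect of Cre itself and an effect of targeting Runx1 cannot be told apart. For denervated control 3 a treatment note says 5 days, where its title says 3. The labels do not say that replicates are separate animals, so the tests measure the spread between these arrays, which may be technical.

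The acute-phase response is the change in secreted proteins that follows injury or infection, best known from the liver, where interleukin-6 acting through gp130 receptors and STAT3, interleukin-1 acting through NF-kB, and glucocorticoids drive it together with C/EBP factors. Several of its proteins are also made outside the liver, by epithelia, leukocytes, fat and muscle. S100A8 and S100A9 form the heterodimer calprotectin, which is abundant in neutrophils and is also found in monocytes. Metallothioneins are small cysteine-rich proteins that bind zinc and other metals, and their genes respond to zinc through the metal-sensing factor MTF-1 and to glucocorticoids.

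The signals were on a linear scale, with each array scaled to the same 2% trimmed mean. The probe sets for a bacterial trp gene that serves as an array control read between 13.8 and 440, and signals in that interval are called background-level below. Median signals per array lay between 442.5 and 604.6. All 12 muscle fibre markers, among them Ckm, Acta1 and Myh4, lay above the background level in every group. A second set of controls, the spiked-in transcripts, averaged a log2 signal of 13.69 on denervated and 14.26 on innervated arrays, so a scaling on the spikes shifts the median of all genes by 0.70 in control and 0.42 in MCK::cre for denervation, and by -0.28 for the genotype difference in denervated muscle (log2). The split of called genes moved with it: 2205 higher and 2003 lower for denervation in control became 6315 higher and 439 lower, 2037 and 1690 for denervation in MCK::cre became 3466 and 495, and 127 and 137 for genotype in denervated muscle became 33 and 271. All changes below are relative to the trimmed mean, on the scale of log2(signal + 16), and a gene is said to be called where its adjusted p in the limma fit was under 0.05. RNA was taken from whole muscle, in which fewer cells of a type and less RNA per cell cannot be told apart.

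Promoter windows show which recognition letters stand around an annotated start of these genes, which for Saa3 and Mt1 lies inside the gene interval. The RefSeq promoter table (build GRCm38.p6) held a window from 250 bases before to 50 bases after the start for 9 of the 10 genes, all but Orm1. The 3 printed first are of secreted acute-phase genes whose windows hold the C/EBP site TTGCNNAA. The 230 bases before the start are given on the gene's own strand, 5′ to 3′, and capitals mark a match on either strand.

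Lcn2 (chr2:32387740-32387969, - strand): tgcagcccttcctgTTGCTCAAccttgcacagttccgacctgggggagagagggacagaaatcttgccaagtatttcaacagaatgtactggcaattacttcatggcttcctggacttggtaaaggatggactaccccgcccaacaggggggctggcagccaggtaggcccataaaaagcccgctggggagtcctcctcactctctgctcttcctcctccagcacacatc
Orm2 (chr4:63362219-63362448, + strand): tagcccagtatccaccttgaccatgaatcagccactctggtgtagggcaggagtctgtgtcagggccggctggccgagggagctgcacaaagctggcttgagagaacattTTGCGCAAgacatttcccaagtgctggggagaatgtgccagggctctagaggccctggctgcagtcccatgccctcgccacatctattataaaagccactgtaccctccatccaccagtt
Saa3 (chr7:46715677-46715906, - strand): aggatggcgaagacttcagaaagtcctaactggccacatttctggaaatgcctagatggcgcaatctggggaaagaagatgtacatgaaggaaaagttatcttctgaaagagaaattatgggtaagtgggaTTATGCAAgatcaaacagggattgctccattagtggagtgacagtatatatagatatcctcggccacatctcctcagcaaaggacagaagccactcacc

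Counted from the start, the C/EBP letters begin at -216 in Lcn2, at -120 in Orm2 and at -99 in Saa3. In Saa3 the match lies on the other strand. Of all 32851 windows in the table, 10.797% hold this site. The S100a9 window also has a match, at -236, and the Mt2 window has one at -12. The windows of S100a8, Mt1, Socs3 and Serpina3n have none, which says only that these letters are not in this stretch. The printed Saa3 stretch lies wholly inside the gene's annotated interval (46711998 to 46719615). It belongs to a start other than the outermost one and is not sequence in front of the whole gene.

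The pair of metallothionein windows is shown for the core of the metal response element, TGCACNC or TGCGCNC, again in capitals on either strand.

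Mt2 (chr8:94172388-94172617, + strand): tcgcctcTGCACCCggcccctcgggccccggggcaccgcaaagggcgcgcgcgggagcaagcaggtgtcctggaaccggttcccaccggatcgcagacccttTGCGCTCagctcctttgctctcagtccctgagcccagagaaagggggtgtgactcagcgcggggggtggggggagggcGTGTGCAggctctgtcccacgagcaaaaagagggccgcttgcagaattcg
Mt1 (chr8:94178859-94179088, + strand): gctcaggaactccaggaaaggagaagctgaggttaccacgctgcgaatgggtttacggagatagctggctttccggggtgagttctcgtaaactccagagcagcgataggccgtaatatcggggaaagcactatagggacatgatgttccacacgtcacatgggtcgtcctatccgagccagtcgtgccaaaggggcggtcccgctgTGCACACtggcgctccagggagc

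The Mt2 window holds 4 such cores, of which 3 lie before the start, at -223, -128 and -50. The Mt1 window holds 3, at -23, 3 and 21, and only the first is in the printed stretch. A core occurs in 25.704% of all windows, and 3 or more occur in 1.969%. As for Saa3, the start used for the Mt1 window lies inside the annotated gene interval. That interval begins at 94178883, so most of the printed Mt1 stretch lies inside it. The STAT3 site TTCNNNGAA, present in 8.298% of windows, was found in the Socs3 window alone among the 9, at -154. The glucocorticoid receptor half-site AGAACA, present in 18.974%, was found in Orm2 at -128 and in Serpina3n at -183. No window of the 9 held the NF-kB consensus, which 4.505% of all windows hold. A match describes letters and does not show that a factor binds there.

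Several of the genes lie beside a relative. On chromosome 4, Orm1 (63344556 to 63348163) and Orm2 (63362449 to 63365877) are 14285 bases apart with Orm3 between them. On chromosome 3, S100a8 and S100a9 are 22595 bases apart, and on chromosome 8, Mt2 and Mt1 are 5315 bases apart, with no other protein-coding gene between either pair (all GRCm38.p6). The orosomucoid and metallothionein genes are close paralogs, and the probe sets used for Mt1 and S100a8 are of a type that may detect more than 1 transcript, so a signal could be shared between relatives and the split between them is uncertain. The probe set used for Socs3 is likewise of a type that may detect other transcripts.

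Orosomucoids, the alpha-1-acid glycoproteins, are secreted plasma proteins that bind drugs and lipids. Orm1 read 13438, 9643 and 10823 on the denervated MCK::cre arrays, 807, 2091 and 1395 in denervated control, 310.0 and 302 in innervated MCK::cre, and 14.3, 280.1 and 252 in innervated control. All 5 innervated arrays were at background level, every denervated array was above them, and the MCK::cre and control arrays did not overlap within denervated muscle. The denervation change of Orm1 was 5.12 ± 0.738 in MCK::cre and 3.33 ± 0.66 in control (log2 ± SE), and both sizes rest on innervated signals that cannot be separated from background.

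Orm2 is the second orosomucoid gene of the set. Its signals were 33250.0, 19056 and 31663 in denervated MCK::cre, 2905, 5354 and 3267 in denervated control, 228 and 81.5 in innervated MCK::cre, and 148, 43.3 and 81 in innervated control. The denervated arrays stood far above the background-level innervated arrays in both genotypes, with no overlap between the genotypes after denervation. The log2 change with denervation was 7.46 ± 0.453 in MCK::cre and 5.25 ± 0.405 in control, and as for Orm1 both sizes rest on innervated signals that cannot be separated from background. The neighbouring relative Orm3, not among the 10, averaged 742 ± 245 in denervated MCK::cre, 401 ± 79.2 in denervated control, 36.9 ± 1.0 in innervated MCK::cre and 34.6 ± 13.3 in innervated control (SD over the arrays of each group). Orm3 was thus high in the same groups, at signals nearer the background level, and whether its probes also read Orm1 or Orm2 was not tested.

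Lipocalin 2, the product of Lcn2, binds bacterial iron carriers and is released by neutrophils, epithelia and inflamed tissue. Its signals were 8056, 9034 and 6169.8 in denervated MCK::cre and 693, 524 and 1624 in denervated control. Innervated MCK::cre arrays read 614 and 214, and innervated control arrays 455, 405 and 431. The 3 denervated MCK::cre arrays stood apart from all 8 others. Denervated control lay above innervated control on every array, but denervated control 2 was below an innervated MCK::cre array. The denervation change was 4.33 ± 0.446 in MCK::cre and 0.94 ± 0.399 in control. Both sizes rest on innervated means at background level, 414 in MCK::cre and 430 in control. The control change was 1.65 with a scaling on the spikes.

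Serpina3n encodes a secreted inhibitor of serine proteases such as granzyme B and neutrophil elastase. It read 5566, 11119.8 and 4358 in denervated MCK::cre, 6502, 3208 and 7312 in denervated control, 402 and 1568 in innervated MCK::cre, and 1092, 491 and 965 in innervated control. Denervated arrays were above innervated ones in each genotype, while the genotypes overlapped in both states. The denervation change was 2.99 ± 0.55 in MCK::cre and 2.71 ± 0.492 in control.

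Saa3, a serum amyloid A protein made mainly outside the liver in mice, was the exception. Its signals were 552, 474 and 353 in denervated MCK::cre, 55.8, 450.1 and 307 in denervated control, 745 and 457 in innervated MCK::cre, and 395, 430.5 and 189.7 in innervated control. All 4 groups overlapped with their neighbours in the order of levels, and 6 of the 11 arrays were at background level. The groups that are not neighbours in that order were in part separate, since both innervated MCK::cre arrays lay above all arrays of innervated and of denervated control. The denervation change was -0.36 ± 0.685 in MCK::cre and -0.60 ± 0.613 in control.

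S100a8 encodes the calprotectin subunit that was clearly detected after denervation. It read 21666, 24116 and 16480.1 in denervated MCK::cre, 7034, 8483 and 15583 in denervated control, 319 and 373 in innervated MCK::cre, and 158, 169 and 307 in innervated control. All innervated arrays were at background level, and the denervated genotypes did not overlap, although denervated control 3, the array with the 5-day note, came within reach of the lowest MCK::cre array. The denervation change was 5.83 ± 0.331 in MCK::cre and 5.48 ± 0.296 in control.

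S100a9, the gene of the partner subunit, read 617, 653 and 380.0 in denervated MCK::cre, 130.5, 43.2 and 198 in denervated control, 33.8 and 316 in innervated MCK::cre, and 15.4, 83.8 and 39.7 in innervated control. Only 2 of the 11 arrays, both denervated MCK::cre, were above the background level. Its denervation change was 2.10 ± 1.09 in MCK::cre and 1.14 ± 0.975 in control.

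The metallothioneins Mt1 and Mt2 were far above the background level on every array. Mt1 read 82827, 66128 and 113113 in denervated MCK::cre, 38621, 38817 and 53763 in denervated control, 14160.3 and 12954 in innervated MCK::cre, and 22455, 8738 and 12572 in innervated control. Mt2 read 73579.8, 59166 and 85726 in denervated MCK::cre, 30971, 39594 and 49861 in denervated control, 10321 and 8700.5 in innervated MCK::cre, and 14214, 7486 and 7898 in innervated control. Both genes had the same order of groups, with denervated MCK::cre highest, denervated control next and without overlap, and the innervated groups lowest and overlapping. The log2 change with denervation was 2.65 ± 0.321 for Mt1 and 2.92 ± 0.271 for Mt2 in MCK::cre, and 1.68 ± 0.287 and 2.06 ± 0.242 in control. A second Mt1 probe set disagreed. It read 389 to 1289 over all 11 arrays, with 2 denervated control arrays and 1 innervated control array at background level. Denervated and innervated arrays overlapped in each genotype, and the innervated MCK::cre arrays (646 and 1289) lay above the innervated control arrays (439.5 to 624). Its denervation change was -0.16 in MCK::cre and -0.05 in control.

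Socs3 encodes the feedback inhibitor of gp130 and STAT3 signalling and is itself a target of STAT3. Its probe set of highest mean read 2740.5, 1947 and 1777 in denervated MCK::cre, 1345, 2191 and 2343 in denervated control, 602 and 912 in innervated MCK::cre, and 318, 590.4 and 1042 in innervated control. The denervated arrays were above the innervated ones in each genotype, and the genotypes overlapped after denervation. Its denervation change was 1.49 ± 0.408 in MCK::cre and 1.68 ± 0.365 in control, and the other 2 Socs3 probe sets gave 1.74 and 1.28 in MCK::cre and 1.23 and 1.05 in control.

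**Figure D1:**
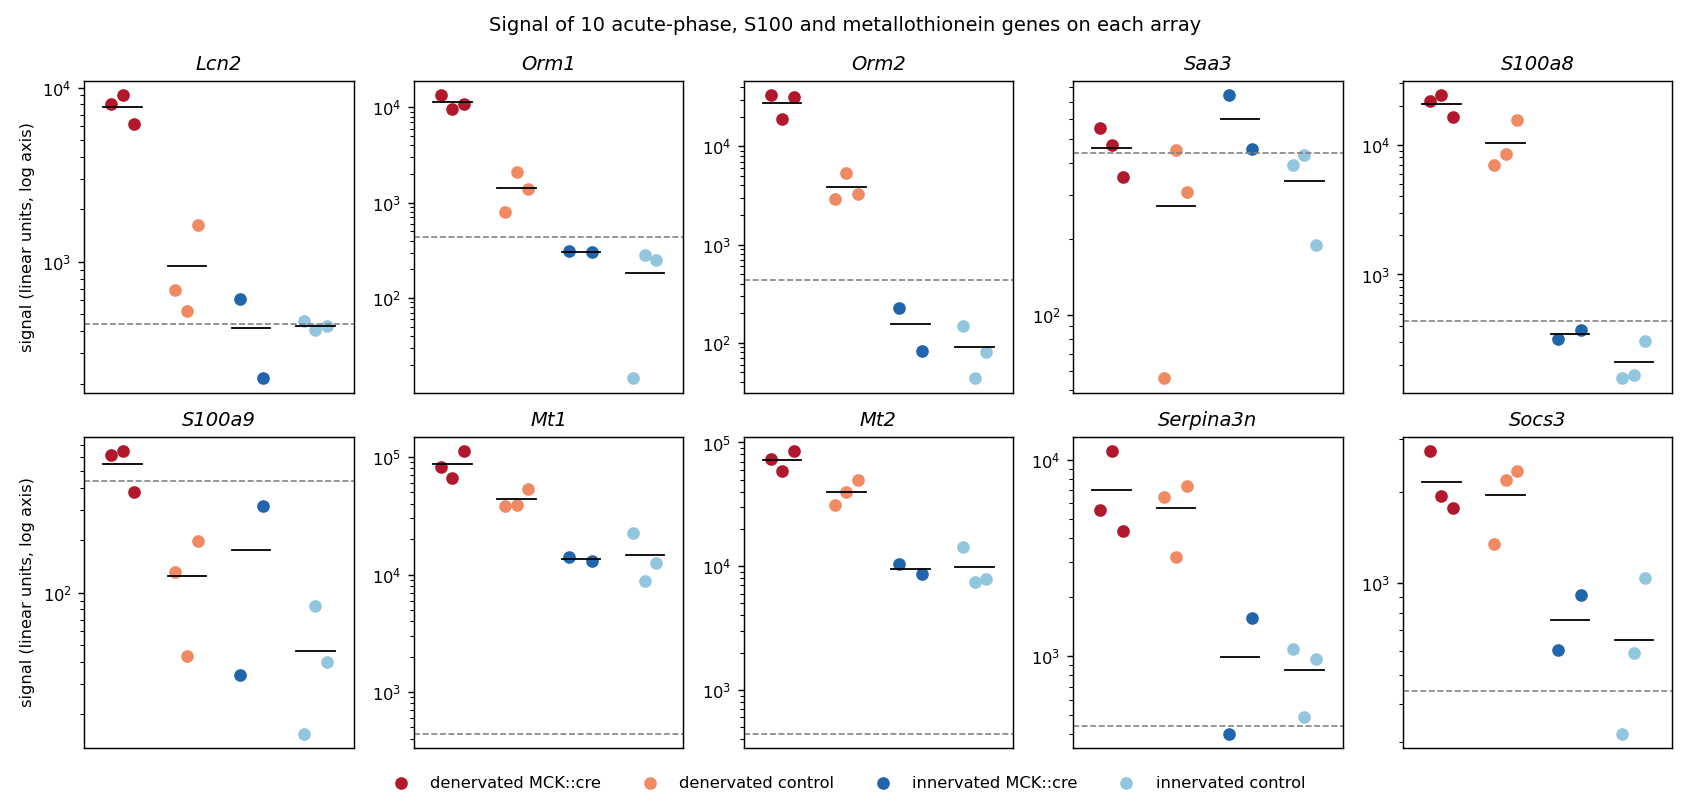
Signal of each gene on each array, on a logarithmic axis in linear signal units; points are arrays, black bars are group means, and the dashed line marks 440, the highest trp control signal. Denervated MCK::cre has the highest mean for 9 of the 10 genes, and in Saa3 the denervated and innervated arrays overlap in each genotype.

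Across the 10 genes, denervation in MCK::cre gave 8 calls, all higher, and denervation in control gave 7, all higher. Of all 12214 genes, 30.5% and 34.5% were called in either direction, with 2037 called higher in MCK::cre and 2205 in control. Every denervated array was above every innervated array for 9 genes in MCK::cre, beside 31.2% of all genes, and for 8 in control, beside 24.2%. The genes were chosen with these changes known, so the counts describe the choice and nothing is read from them. The median change of the 10 was 2.96 in MCK::cre and 1.87 in control, beside a median of -0.01 for all genes in both. Saa3 and S100a9 were the genes without a call in either genotype, and Lcn2 had none in control.

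**Figure D2:**
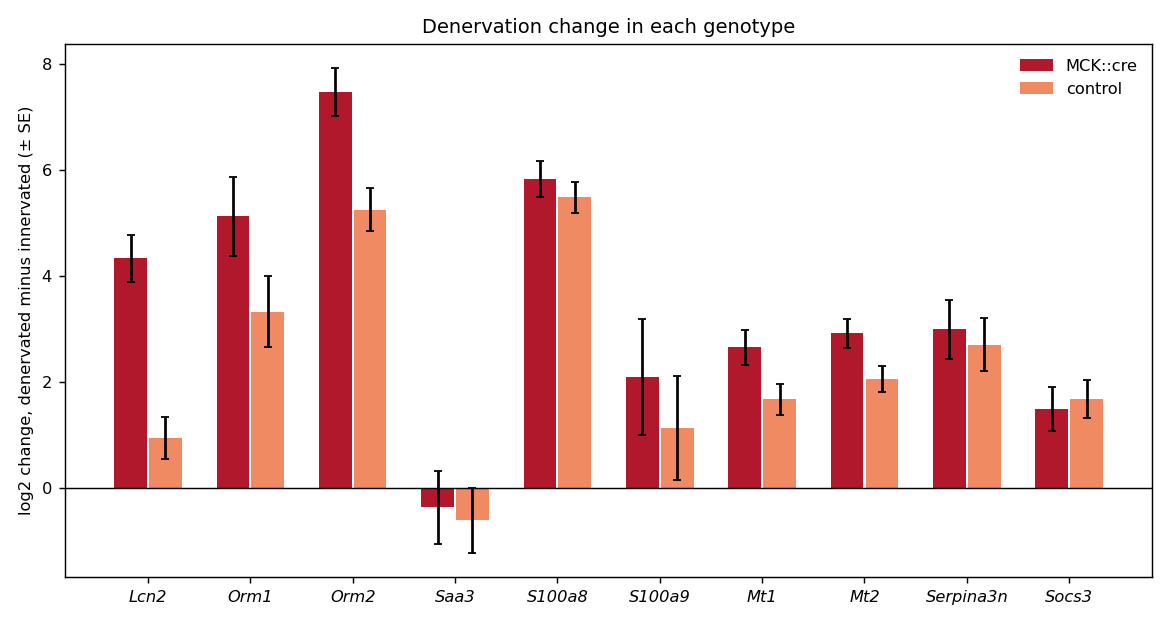
Log2 change with denervation in MCK::cre and in control muscle for each gene; bars start at 0 and error bars are the standard error of the fit. The bars of Orm1, Orm2 and S100a8 lie between 3.33 and 7.46 and are set against background-level innervated signals. Those of Lcn2 and S100a9 are likewise set against innervated means at background level. Saa3 lies at or below 0 within its error in both genotypes.

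The next question was whether the level in denervated muscle differed between the genotypes. Lcn2, Orm1 and Orm2 were higher in MCK::cre than in control and were the 3 of 10 genes called, beside 2.16% of all genes. Lcn2 averaged 7753 ± 1456 in denervated MCK::cre and 947 ± 592 in denervated control (SD, n = 3 each), a log2 difference of 3.16 ± 0.399 SE (limma adjusted p = 0.00125). Orm2 averaged 27989.6 ± 7777 in MCK::cre and 3842 ± 1322 in control, a difference of 2.87 ± 0.405 (limma adjusted p = 0.00264). For both genes all 3 MCK::cre arrays were above all 3 control arrays, and the call held in all 21 alternatives run, with limma adjusted p between 0.000538 and 0.0122 for Lcn2 and between 0.000366 and 0.019 for Orm2.

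Orm1 averaged 11301 ± 1943 in MCK::cre and 1431 ± 643 in control, and its difference of 3.06 ± 0.66 passed with less room (limma adjusted p = 0.0321). Without any 1 of the 6 denervated arrays its limma adjusted p was between 0.0647 and 0.162, highest without denervated control 1, where the difference was 2.70. Without innervated MCK::cre 1 or 2 it was 0.0516 or 0.0509 with the difference at 3.06, since those arrays enter the estimate of the spread alone. With a pseudocount of 1, or without the trend in the variance model, the limma adjusted p was 0.0951 or 0.105. By size of the log2 difference, Lcn2 ranked 1, Orm1 2, Orm2 4 and S100a9 12 among 12214 genes, a description that uses the choice of the genes.

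The other 7 genes were not called between genotypes in denervated muscle. S100a8 differed by 1.07 ± 0.296 (limma adjusted p = 0.11), Mt1 by 0.98 ± 0.287 (0.138) and Mt2 by 0.87 ± 0.242 (0.112), each with all MCK::cre arrays above all control arrays. The second Mt1 probe set differed by 0.67 (limma adjusted p = 0.603), with overlapping arrays. Without denervated control 3 the S100a8 difference was 1.41 (limma adjusted p = 0.0216), which passes. Mt1 and Mt2 passed in a fit of the 6 denervated arrays alone (limma adjusted p = 0.026 and 0.0328), without innervated control 1 (0.0398 and 0.0381) and, for Mt1, without innervated control 2 (0.0395), at the same differences. S100a9 differed by 2.16 ± 0.975 (0.424) and Saa3 by 1.08 ± 0.613 (0.564). For Serpina3n the difference was 0.27 with a 95% interval of -0.79 to 1.34, and for Socs3 0.15 with an interval of -0.64 to 0.94, which leaves room for differences of either sign. In 7 of the 10 genes every MCK::cre array was above every control array, beside 12.7% of all genes, and the median difference was 1.08 beside 0.01 for all genes.

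In innervated muscle 0 of the 10 genes were called between the genotypes, beside 0% of all genes by limma. Of 26170 probe sets tested, 1030 had an unadjusted p under 0.05, a share that is itself under 0.05. S100a8, the 1 gene of the 10 with such a p, averaged 346 ± 38.1 in MCK::cre (n = 2) and 212 ± 83.1 in control (n = 3), both at background level. Mt1 averaged 13557 ± 853 in MCK::cre and 14588 ± 7077 in control, a log2 difference of 0.00 with a 95% interval of -0.69 to 0.70. The Mt2 difference was 0.01 with an interval of -0.58 to 0.59, and that of Lcn2 was -0.23 with an interval of -1.19 to 0.74. Differences within these intervals remain possible with 2 and 3 arrays, and the intervals are not limits of detection.

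The interaction asks whether the denervation change itself differed between genotypes. Lcn2 was the 1 gene of the 10 called, beside 0.262% of all genes, with a denervation change larger by 3.39 ± 0.599 in MCK::cre than in control (limma adjusted p = 0.0392). This size rests in part on innervated Lcn2 means at background level. With the replicate number as a block shared by all arrays, the Lcn2 interaction was 3.29 (limma adjusted p = 0.0609). Without the trend in the variance model it was 3.39 (limma adjusted p = 0.14). The call was also lost without any 1 of 8 arrays, namely denervated MCK::cre 1, 2 or 3, denervated control 1 or 2, innervated MCK::cre 2 and innervated control 1 or 3, with the value between 2.66 and 3.55 and limma adjusted p between 0.0665 and 0.158. The interaction was 2.22 ± 0.608 for Orm2 (limma adjusted p = 0.244), 1.79 ± 0.99 for Orm1 (0.738), 0.98 ± 0.43 for Mt1 (0.615) and 0.86 ± 0.363 for Mt2 (0.588). For the second Mt1 probe set it was -0.12 (limma adjusted p = 0.985). Without innervated control 1, whose Orm1 signal of 14.3 is the lowest of all, the Orm1 interaction was 2.86 (limma adjusted p = 0.0397). It lay between -0.19 and 0.96 for the other 5 genes, none of them called.

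**Figure D3:**
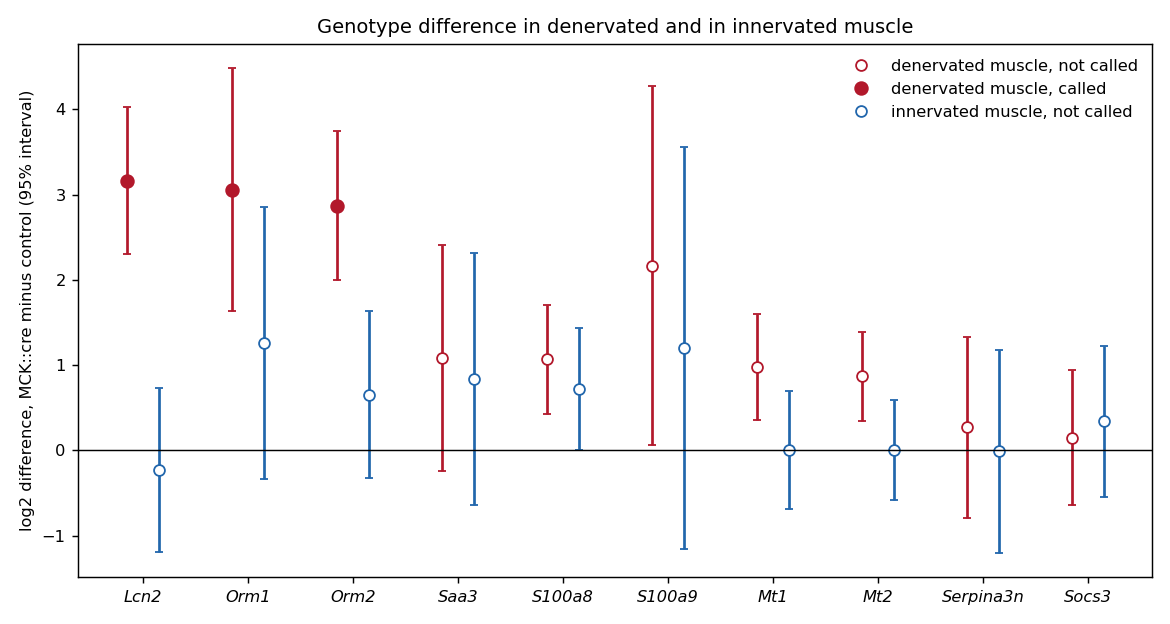
Log2 difference MCK::cre minus control in denervated (red) and innervated (blue) muscle, with 95% intervals of the fit; filled points passed the limma adjusted threshold. Lcn2, Orm1 and Orm2 are the filled points, at 3.16, 3.06 and 2.87, and no innervated point is filled.

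The order of mean levels was denervated MCK::cre, denervated control, then the innervated groups for 8 of the 10 genes. In S100a9 innervated MCK::cre came before denervated control with overlapping arrays, and in Saa3 innervated MCK::cre came first. Within denervated control, array 3 gave the highest signal for 7 of the 10 genes, array 2 for 3 and array 1 for 0. No such concentration was seen in denervated MCK::cre, where the highest signal fell on arrays 1, 2 and 3 for 4, 4 and 2 genes. Denervated control 3 is the array with the 5-day note. Its summed adipocyte marker signal was 69562, beside 49502 and 42760 on denervated control 1 and 2. Most of the 69562 was Fabp4, at 59308, while Adipoq reached at most 8034 in this group. Its hepatocyte marker sum was 9028, beside 3954 and 3248, and 7671 of the 9028 was the signal of Cyp2e1 alone. The sum therefore follows Cyp2e1 and not the hepatocyte list as a set. Fibroblast and endothelial sums were also highest on it within its group, and muscle fibre, neutrophil and epidermal keratinocyte sums lowest. What part the note's time or these differences in marker signal play was not tested.

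Deviations from the group means over the 11 arrays were most like those of Polr3k (r = 0.973) and C1qtnf1 (0.944) for Lcn2, and of Gm527 (0.971) and Dedd (0.965) for Orm1. For Orm2 they were most like those of Dennd3 and Sdf2l1 (0.924 each), for Mt1 like Slc18a1 (0.966) and Thrsp (0.958), and for Mt2 like Kcp (0.939) and Nup93 (0.928). S100a8 went with Sik2 (0.938) and Ubqln4 (0.936), and S100a9 with Mrgprg and Snapc4 (0.938 each). The nearest of Serpina3n were Magix (0.966) and Cdkn2d (0.965), of Socs3 Scmh1 (0.97) and Bsdc1 (0.952), and of Saa3 Olfml1 (0.955) and B3gnt9 (0.952). Each is the highest of 12204 candidate correlations over 11 arrays that share scaling, and is given as a description.

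Genes of the same pathways, listed from textbook membership, moved in mixed directions. Their counts of called genes are to be read beside the shares over all genes called in either direction. These were 30.5% for denervation in MCK::cre, 34.5% for denervation in control and 2.16% for genotype in denervated muscle. Among 11 tested genes of other acute-phase proteins, 3 were higher and 2 lower with denervation in MCK::cre and equally in control, with 0 called between genotypes in denervated muscle. Timp1, an inhibitor of matrix metalloproteinases, rose by 1.95 in MCK::cre and 3.14 in control, and Orm3 rose by 3.79 and 3.06 in MCK::cre and control. Lbp, the lipopolysaccharide-binding protein, rose by 0.83 in MCK::cre and 1.03 in control. Ptx3, a long pentraxin, was lower, at -2.94 in MCK::cre and -2.73 in control, and Lrg1, a leucine-rich glycoprotein, likewise, at -1.10 in MCK::cre and -0.86 in control. The liver plasma protein genes Fga, Fgb, Fgg, Crp and Apcs were below the filter.

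Of 23 tested genes of interleukin-6 family and STAT3 signalling, 9 were higher and 2 lower with denervation in MCK::cre, and 6 were higher and 4 lower in control, beside 30.5% and 34.5% of all genes called in either direction. Il6st, which encodes the gp130 receptor chain, rose by 0.77 in both genotypes, and Stat3 rose by 0.96 in MCK::cre and 0.80 in control. The cytokine genes Il6, Lif, Osm and Il11 were below the filter, so their levels were not tested. Lifr, the receptor chain for leukaemia inhibitory factor, was called between genotypes in denervated muscle, at 20764 ± 3488 in MCK::cre and 10489 ± 899.8 in control (log2 difference 0.97, limma adjusted p = 0.016). Stat5a was the second, at 9105 ± 346 in MCK::cre and 4782 ± 1401 in control (log2 difference 0.97, limma adjusted p = 0.0162). Lifr was lower after denervation, from innervated means of 26580 ± 6833 in MCK::cre and 30194 ± 6106 in control. Its log2 change with denervation in control was -1.51. Stat5a was higher, from innervated means of 3282 ± 129 in MCK::cre and 3018 ± 268 in control. The list's median genotype difference was 0.11, beside 0.01 for all genes.

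Interleukin-1, TNF and NF-kB genes had 10 higher and 1 lower of 17 tested with denervation in MCK::cre and 9 higher and 1 lower in control, beside 30.5% and 34.5% of all genes, with 0 called between genotypes. Nfkb2 rose by 3.09 in MCK::cre and 2.77 in control, and its partner Relb by 2.24 and 1.79. The list's median change was 0.98 in MCK::cre and 0.76 in control, beside -0.01 for all genes.

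The 15 glucocorticoid-responsive genes had 3 higher and 3 lower in MCK::cre and 0 higher and 4 lower in control with denervation. Between genotypes in denervated muscle 2 were called in opposite directions. Dusp1, a phosphatase of MAP kinases, averaged 9208 ± 1274 in MCK::cre and 26004 ± 1286 in control (log2 difference -1.50, limma adjusted p = 0.000165), and Hsd11b1, which regenerates active glucocorticoid, averaged 7696 ± 2186 in MCK::cre and 3063 ± 612 in control (log2 difference 1.31, limma adjusted p = 0.00771).

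Of 24 tested genes of zinc and metal handling, 3 were higher and 5 lower with denervation in MCK::cre, and 5 were higher and 5 lower in control, counts near the 30.5% and 34.5% of all genes, with 0 called between genotypes. Slc39a14, a zinc and iron importer, rose by 2.03 in MCK::cre and 2.19 in control, and Hmox1, the haem-degrading enzyme, by 4.11 and 2.48. Tfrc, the transferrin receptor, was lower by -3.88 in MCK::cre and -3.33 in control. Mtf1, which encodes the metal-sensing factor, averaged 2841 ± 373 in denervated MCK::cre, 3609 ± 240.4 in denervated control, 3696 ± 1300.1 in innervated MCK::cre and 4438 ± 610.4 in innervated control, and was not called in any comparison. The list's median change with denervation was 0.06 in MCK::cre and -0.04 in control.

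Among 7 other S100 genes tested, 2 were higher with denervation in each genotype and 0 were called between genotypes. S100a4 was called in both, with changes of 1.23 in MCK::cre and 0.96 in control, S100a10 in MCK::cre alone (1.25) and S100a16 in control alone (0.78), and whether these changes differ between genotypes is answered by the interaction, in which no gene of the list was called. Of 6 tested receptors for the secreted products, 2 were higher and 1 lower in MCK::cre and 3 were higher and 2 lower in control. Tlr4, a receptor of calprotectin, rose by 2.64 in MCK::cre and 2.70 in control, and Tlr2 by 1.93 and 1.68. Slc22a17, a lipocalin 2 receptor, had changes of -0.80 in MCK::cre and -0.60 in control.

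**Figure D4:**
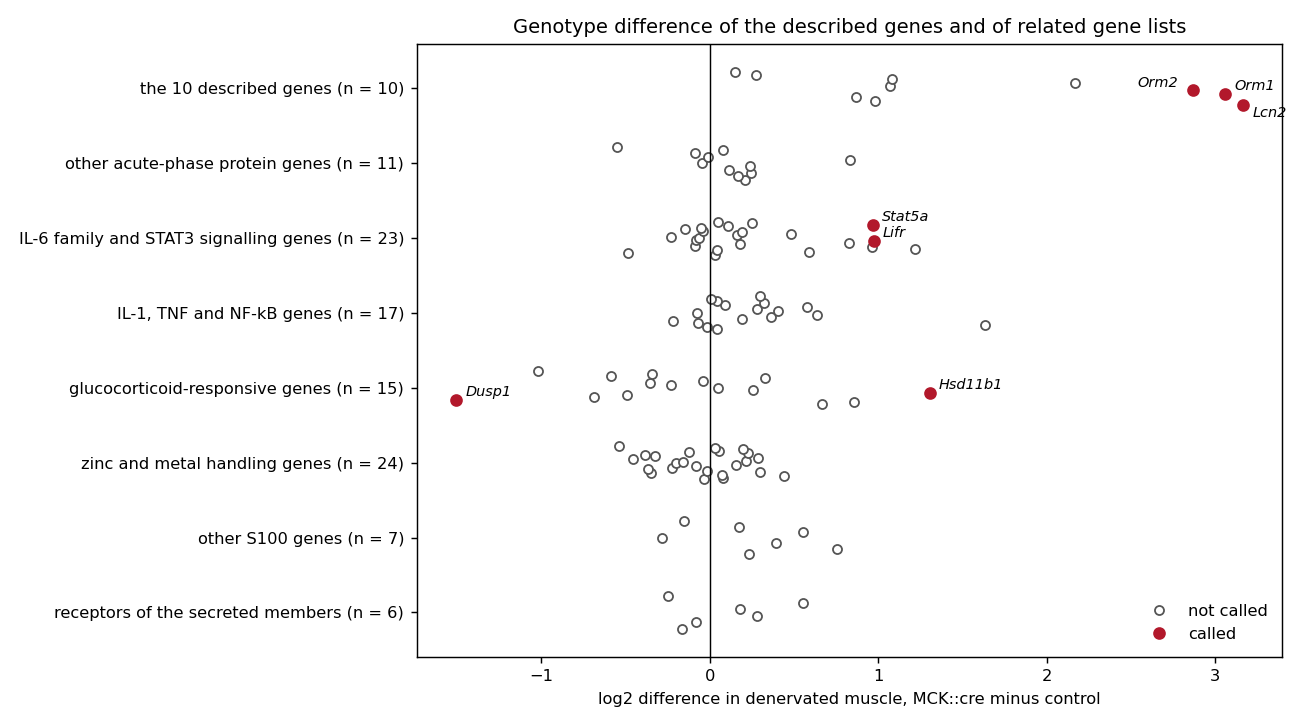
Log2 difference MCK::cre minus control in denervated muscle for the 10 genes and for each related list; each point is a gene and filled red points passed the limma adjusted threshold. Lcn2, Orm1 and Orm2 lie between 2.87 and 3.16, and the called genes of the lists are Stat5a, Lifr, Hsd11b1 and Dusp1.

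Markers of cell types known to make these proteins were read beside them. Of 14 neutrophil markers with a probe set, 12 had a background-level mean in denervated MCK::cre, 11 in denervated control, 11 in innervated MCK::cre and 12 in innervated control. Their summed signal was 3025 to 4343 in denervated MCK::cre, 3498 to 4583 in denervated control, 4342 to 5007 in innervated MCK::cre and 3711 to 4005 in innervated control. The defining genes Elane, Camp, Ltf, Csf3r and Cxcr2 had background-level means in all 4 groups, with Cxcr2 at 38.2 ± 7.2 in denervated MCK::cre and 60.5 ± 14.9 in denervated control. Mmp8 was the 1 of 3 tested neutrophil markers called, higher by 2.02 with denervation in MCK::cre, at 532 ± 170.1 in denervated and 131 ± 95 in innervated MCK::cre. Within control, the sum on denervated control 1 (4583) was above that of every innervated control array (4005 at most). The sums on denervated control 2 and 3 (3516 and 3498) were below every innervated control array (3711 at least). What part neutrophils have in the S100a8 and Lcn2 signals was not tested.

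Of 16 macrophage and leukocyte markers tested, 11 were higher with denervation in MCK::cre and 6 in control. Of all 12214 genes, 30.5% and 34.5% were called in either direction, with 2037 called higher in MCK::cre and 2205 in control. None of the 16 was called lower, and the other 10 in control did not pass, among them Ptprc at 2781 ± 400.2 in denervated and 2852 ± 270.1 in innervated control. Their summed signal was 84755 to 106304 in denervated MCK::cre, 68046 to 90419 in denervated control, 30597 to 33190 in innervated MCK::cre and 40287 to 52319 in innervated control. Cd68, a lysosomal protein of macrophages, rose by 4.87 in MCK::cre and 3.89 in control. Between genotypes in denervated muscle 0 of the 16 were called, the summed signals overlapped, and the median log2 difference of the 16 was 0.16, beside 0.01 for all genes. In innervated muscle both MCK::cre sums lay below all control sums, with a median log2 difference of -0.46 and 0 called. The larger number of calls in MCK::cre thus goes with lower innervated signals. What part macrophages have in the denervation and genotype values of the 10 genes was not tested.

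Of 10 hepatocyte markers, 9 had a background-level mean in denervated MCK::cre, 9 in denervated control, 6 in innervated MCK::cre and 8 in innervated control. Apoa1, Ttr and Ahsg had background-level means in all 4 groups. Alb averaged 162 ± 88.8 in denervated MCK::cre, 302 ± 82.8 in denervated control, 584 ± 65.1 in innervated MCK::cre, above the background level, and 397.5 ± 106 in innervated control. None of the 3 tested was called in any comparison. Adipocyte markers had 0 of 4 tested called in MCK::cre and 1 lower in control, and fibroblast markers had 1 lower of 9 in MCK::cre and 1 higher in control, with 0 called between genotypes in either list. Among muscle fibre markers, Myh2, the myosin heavy chain of type IIa fibres, averaged 10124 ± 3384 in denervated MCK::cre and 68717 ± 17306 in denervated control (log2 difference -2.78, limma adjusted p = 0.000262), and it was the 1 of 12 called between genotypes. With denervation 11 of the 12 fibre markers were lower in MCK::cre and 9 in control, with summed signals of 1662638 to 2075343 in denervated MCK::cre, 1679771 to 2385858 in denervated control, 2695140 to 3126809 in innervated MCK::cre and 2594606 to 2924398 in innervated control. Of 7 endothelial markers, 2 were lower in MCK::cre and 5 in control, with 0 called between genotypes. What part these shifts have in the values of the 10 genes was not tested.

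**Figure D5:**
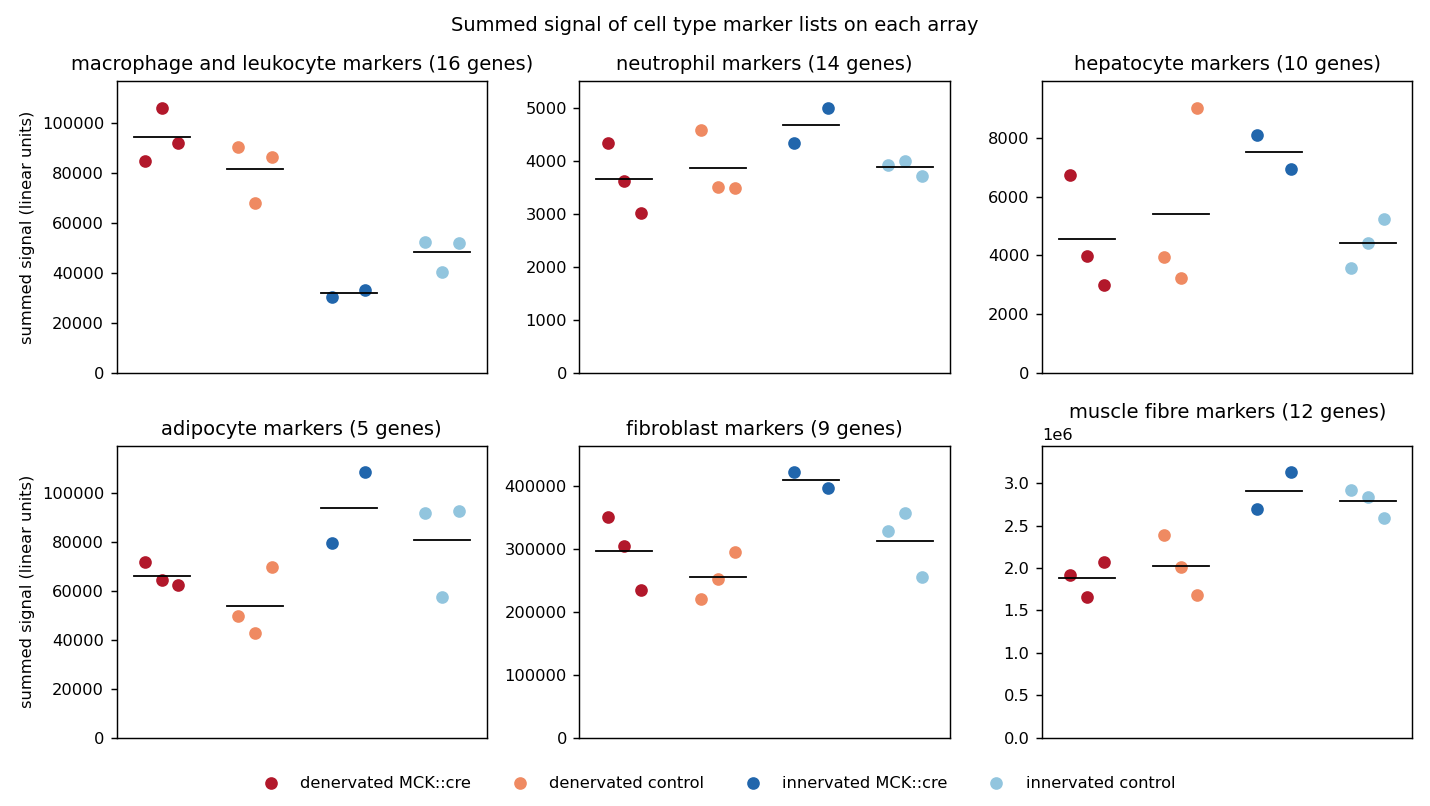
Summed linear signal of 6 cell type marker lists on each array, with axes starting at 0; points are arrays and black bars are group means. Macrophage and leukocyte markers are higher on all denervated arrays (68046 or more) than on all innervated arrays (52319 or less), while neutrophil sums lie between 3025 and 5007 in all groups.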

How the data were processed

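The deposited values were Affymetrix probe set signals in intensity units, which the authors had scaled so that the 2% trimmed mean of each array is 2500 (read from the values). Their software was not given in the sources used here. Groups came from the sample titles. Of 35890 annotated probe sets, 34958 had 1 symbol, and 34754 gene IDs matched the RefSeq table. Signals were used as log2(value + 16), and a probe set was tested where its signal exceeded the array median on 2 or more of the 11 arrays, the 64 control probe sets left out. Group means were estimated from the 11 arrays together with limma 3.58.1 in R 4.3.3 (eBayes with trend), with Benjamini-Hochberg adjustment over 26170 probe sets at a threshold of 0.05; the pipeline was tested on simulated data. Each gene was represented by its tested probe set of highest mean.

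All 10 genes and all their probe sets were named. From each list up to 3 genes of smallest p per comparison were eligible, and other list genes named (Il6st, Nfkb2, Mtf1, the cytokines, the defining markers, Orm3 and the liver genes among them) were picked for their role after values were seen. The 2 genes most correlated with each of the 10 were named. The genes, lists and tests were chosen with earlier results of these data known. Deviations of equal-numbered denervated and innervated control arrays correlated at 0.11, 0.22 and 0.30, above the limit that was set for treating them as paired, so blocked fits were run as alternatives. In MCK::cre they correlated at 0.03 and 0.05. The block over all arrays also ties equal-numbered arrays of different genotypes. Those correlated at -0.1, 0.02 and -0.05 in denervated and at -0.16 and -0.18 in innervated muscle. The blocked interaction is therefore not a test of pairs within a genotype. All values given are from the fit without a block unless the block is named. Precision is limited by the number of arrays.

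Alternatives were other pseudocounts, filters, scalings and variance models, a replicate block, the compared groups alone, the mean over a gene's probe sets, and leaving out each array.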

Additional observations from a re-analysis of the deposited data

Results flagged for a closer look

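Of the 10 genes, Lcn2 had a denervation change that differed between genotypes in the fit without a block. The change was larger in MCK::cre than in control by 3.391 on the log2 scale (SE 0.5987, limma adjusted p = 0.0392). This call held in 10 of 20 alternatives and was lost with the replicate block (limma adjusted p = 0.0609).

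Among the listed pathway and marker genes, 3 had such a difference by the same interaction test. The phosphatase gene Dusp1 had a change lower in MCK::cre by -1.324 (limma adjusted p = 0.025). For Myh2, a myosin heavy chain, the value was -2.413 (limma adjusted p = 0.0391). Ptprc, the leukocyte surface protein CD45, had 1.761 (limma adjusted p = 0.0259), with 3369 ± 912 in denervated and 989.6 ± 40.2 in innervated MCK::cre, and 2781 ± 400.2 in denervated and 2852 ± 270.1 in innervated control (SD).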

How the results depend on the processing

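The genotype calls of Lcn2 and Orm2 in denervated muscle held in 21 of 21 alternatives (2.83 to 3.63 and 2.58 to 3.13), that of Orm1 in 11 of 21 (2.70 to 3.38) and the Lcn2 interaction in 10 of 20 (2.66 to 4.12). Orm1 lost it with a pseudocount of 1 (limma adjusted p = 0.0951) and without the variance trend (0.105), where the Lcn2 interaction had 0.14. With the replicate block the interaction had 0 of the 10 genes called; the block in all arrays ended no other call of the 10 genes. Without the trend, 151 genes were called between genotypes in denervated muscle (264 with it), and the interaction had 7 (32 with it) and 0 of the 10. With only the groups compared, 5 of the 10 were called between genotypes in denervated muscle. Centring on the spikes called 6754 genes for denervation in control (4208 without it). Leaving out 1 array at a time gave 125 to 353 genes and 2 to 5 of the 10 between genotypes in denervated muscle, 12 to 57 genes and 0 to 1 of the 10 for the interaction, 0 to 5 genes for innervated muscle and 2423 to 4328 genes for denervation in MCK::cre.

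Signs turned only for values that were not called. With centring on the spikes, Saa3 had 0.11 in control, 0.0725 in MCK::cre and -0.0361 for the interaction, Serpina3n -0.0198 and Socs3 -0.14 between genotypes in denervated muscle, and Mt1 -0.0109 and Mt2 -0.0082 in innervated muscle. With median scaling, Mt1 had -0.13 and Mt2 -0.12 in innervated muscle and the Socs3 interaction was 0.0393; with the mean of its probe sets it was 0.18. Serpina3n in innervated muscle was 0.00204 with a pseudocount of 64 and 0.0128 with the replicate block. Leaving out 1 array gave, for genotype in innervated muscle, Lcn2 -0.95 to 0.50, Mt1 -0.31 to 0.37, Mt2 -0.16 to 0.30, Orm2 -0.00787 to 1.31, S100a9 -0.17 to 2.57, Serpina3n -0.97 to 0.95 and Socs3 -0.0808 to 0.75. In denervated muscle it gave Serpina3n -0.12 to 0.56 and Socs3 -0.10 to 0.30, and for Saa3 denervation in control -1.14 to 0.21. For the interaction it gave S100a9 -0.40 to 2.33, Saa3 -0.57 to 0.78, Serpina3n -0.68 to 1.25 and Socs3 -0.60 to 0.23. The causes were not tested. Signals inside the trp control interval limit S100a9 and Saa3, and the innervated values of Lcn2, Orm1, Orm2 and S100a8.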
